A study of Mus musculus with 12 samples.

Results

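TF group 3 was compared with TF group 2, which differ by the added pair MYOCD and SRF. The comparison used 6 of the 12 arrays of the series, 3 per group, chosen by the group given in their labels, and all 22626 probe sets of the array other than control probe sets, which stood for 12393 genes. All cultures were mouse embryonic fibroblasts (MEFs) of the C57BL/6 strain, and all, the negative control included, carried the lentivirus for M2rtTA, the transactivator that switches on the inducible vectors when doxycycline is present. TF group 2 was transduced in addition with GATA4, TBX5 and MEF2C together with Mesp1 and SMARCD3 (5 factors), and TF group 3 with the same vectors plus those for MYOCD and SRF (7 factors). TF group 1, used here for side by side values, received only GATA4, TBX5 and MEF2C (3 factors). Total RNA was taken after 7 days of doxycycline, in medium to which serum and valproic acid had also been added, from whole unsorted cultures that the labels call biological replicates. The vectors carried human coding sequences except for Mesp1, which was from mouse. TF group 3 thus received more vectors than TF group 2, and the number of vectors and the identity of the added factors cannot be told apart. In RNA from a whole culture, a change in the number of cells that express a gene and a change in its RNA per cell cannot be told apart.

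Myocardin (MYOCD) is a transcriptional coactivator of cardiac and smooth muscle cells that does not bind DNA by itself. It attaches to serum response factor (SRF), a MADS-box protein that binds the CArG box, a short A and T rich element flanked by C and G bases. SRF is present in most cells and serves different sets of genes with different partners: with myocardin, contractile genes of smooth and cardiac muscle; with the myocardin-related factors, genes of the actin cytoskeleton; and with ternary complex factors, the immediate early genes that respond to serum.

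Each array gives 1 signal per probe set, on a linear scale that the depositors had set to a common trimmed mean, and values here are either this signal or its log2. The 6 arrays were closely correlated: Pearson's r of log2 signal across probe sets was 0.962 to 0.966 between replicates and 0.955 to 0.959 between the groups. The mean of the poly-A spikes, RNAs of bacterial genes added before amplification, was 7.59 in TF group 2 and 7.60 in TF group 3 on the log2 scale (two-sided exact permutation test, p = 0.8). The spikes read lower on the negative control arrays (7.33, 6.62 and 6.79) and higher in TF group 1 (7.70, 7.86 and 7.83). Values set against the negative control were not corrected for this. Mean 18S ribosomal signal was 0.16 higher in TF group 3, with no overlap of the arrays, and an exact permutation p of 0.1 is the smallest that 3 against 3 arrays can give. The log2 signal of beta-actin at its 3′ minus its 5′ probe sets did not overlap either. It was 0.13 to 0.15 in TF group 2 and 0.10 to 0.12 in TF group 3 (exact permutation p = 0.1). On the negative control arrays 18S signal was 11.04, 11.32 and 11.03, against 12.10 to 12.47 in TF groups 2 and 3. Signals of a fibroblast were bright in both groups: Col1a1 read 5437, 5941 and 5437 with 5 factors and 6275, 6153 and 6034 with 7, and Vim, the intermediate filament vimentin, 13810.1, 14181 and 14519.5 against 15255, 14891 and 14629.

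A small share of the genes measured differed between TF group 3 and TF group 2, and by the rule used here more were higher than lower. A gene or probe set is said here to have risen or fallen, or to be called, when limma gave a Benjamini-Hochberg adjusted p under 0.05 over all of its kind and its fold change was over 1.5. By this rule 494 probe sets (2.18%) were called higher and 315 (1.39%) lower in TF group 3. At the level of genes, each read from its brightest probe set, 308 (2.49%) were called higher and 228 (1.84%) lower, so that 57.5% of the called genes were higher. Without the fold requirement this share was 49.9%. The arrays of the groups did not overlap for any of the 536 called genes; over all 12393 genes, TF group 3 lay wholly above for 1906 and wholly below for 2138. Increases reached further than decreases: 113 genes were higher by more than 2-fold and 74 lower, 28 were higher by more than 4-fold and 5 lower, and 6 were higher by more than 8-fold and 1 lower. These folds are bounds for the genes whose dimmer group lay under a signal of 32, a level at which replicates scatter widely. There the fold was taken against 32. For the 11 called genes with both groups under 32 this gives no valid fold, and their place in these counts may be wrong. The median difference over all genes was -0.01 on the log2 scale.

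**Figure D1:**
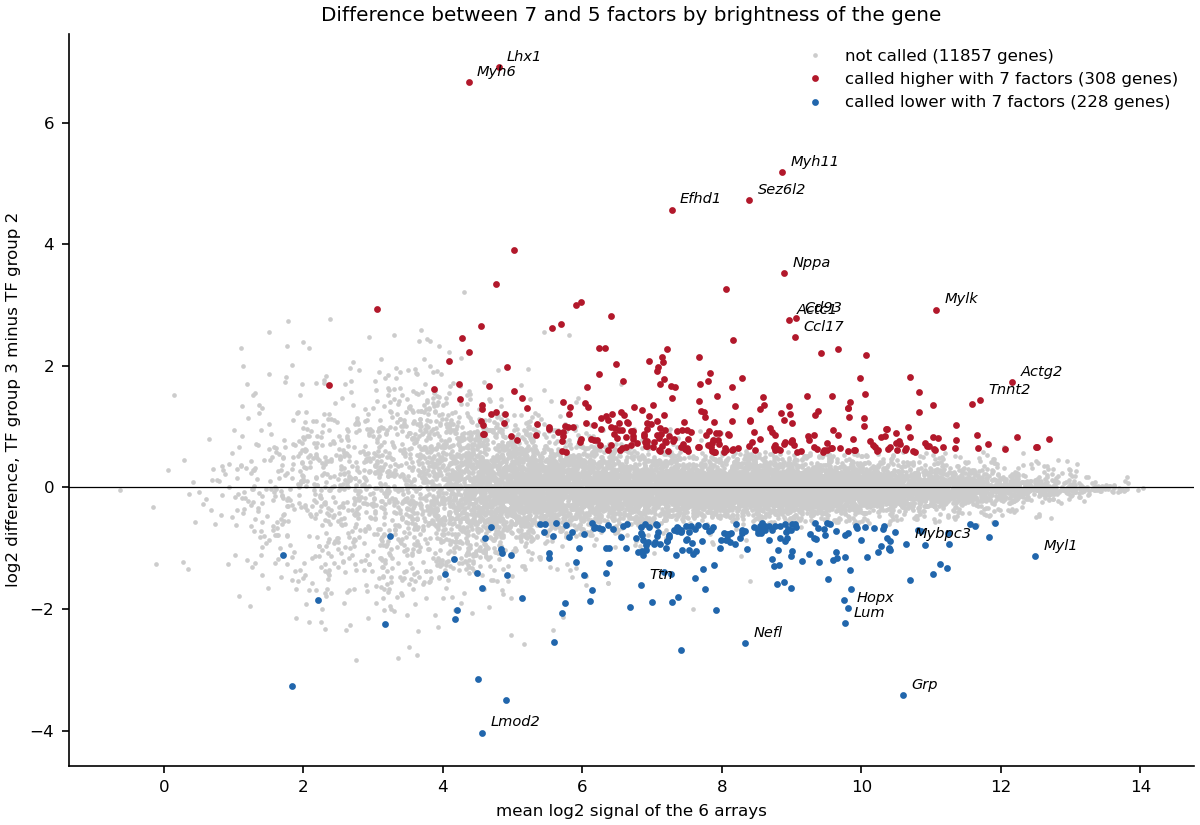
Each point is 1 of 12393 genes. The horizontal axis is the mean log2 signal of the 6 arrays of TF groups 2 and 3, the vertical axis the log2 difference, TF group 3 minus TF group 2, and colour marks the 308 genes called higher and the 228 called lower. The uncalled genes form a band that is narrow for bright genes and widens for dim ones, and the called increases, led among bright genes by Myh11, extend further from 0 than the called decreases.

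The share of genes called depended on brightness. Of the genes whose brighter group had a mean log2 signal below 5, 0.53% were called; the share was 3.70% between 5 and 7, 6.66% between 7 and 9, 5.08% between 9 and 11 and 4.25% above 11. The median SD among replicates fell from 0.85 to 0.0511 from the dimmest class to the class above 11. A gene near background could therefore be called only when its difference was large. Of 322 further probe sets that belong to called genes, 120 were called in the same direction and 0 in the opposite one.

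Neither added factor was called higher at its own probe sets. Srf, read by a pair of probe sets, was 434, 534 and 433 in TF group 2, against 489, 432 and 401 in TF group 3 at the brighter of them, with overlapping arrays and a log2 difference of -0.08 (SE 0.11, adjusted p = 0.74). Myocd was dim at both of its probe sets. The brighter read 80.9, 72.3 and 71.0 with 5 factors and 54.7, 42.2 and 39.1 with 7, a log2 difference of -0.73 that was called (adjusted p = 0.0372), while the dimmer, with signals of 2.67 to 23.0 in TF group 3, differed by 0.84 in the opposite direction and was not called. The mean of both gave 0.054 for Myocd, and its call was also lost when any 1 of 9 of the 12 arrays was left out. The probe sets are designed to mouse transcripts, and whether they bind RNA of the human MYOCD and SRF vectors was not tested. Among the shared factors, Mesp1, the mouse sequence, was bright with either mix (6.97, 6.85, 11.03 and 10.56 mean log2 signal in the negative control, TF group 1, TF group 2 and TF group 3). It read 2122, 2146 and 1996 in TF group 2, against 1726, 1586 and 1253 in TF group 3, lower on every array of the latter but not called (log2 difference -0.47, adjusted p = 0.234). Mef2c likewise had no overlap between groups and no call (534, 519 and 581 against 458, 356 and 395; log2 difference -0.44, adjusted p = 0.0652). Smarcd3 differed by 0.21, Tbx5 by 0.10 and Gata4, which was near background, by -0.37, none of them called.

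Smooth muscle contractile genes were called in 1 direction only, higher with MYOCD and SRF. Of 30 genes measured, 10 were called higher (33.3%, against 2.49% of all genes) and 0 lower (against 1.84%), 28 had a difference above 0, and their median difference was 0.47 against -0.01 over all genes. Smooth muscle myosin heavy chain, Myh11, the defining motor of the differentiated smooth muscle cell, showed the largest rise of the list. Its signals were 63.6, 97.6 and 74.7 with 5 factors and 2890, 2879.5 and 2676 with 7. The lowest array with 7 factors was thus far above the highest with 5, at a mean log2 signal of 11.46 ± 0.06 against 6.27 ± 0.31 (SD, n = 3). The rise was 36.3-fold (log2 difference 5.18, SE 0.14, adjusted p = 1.94e-07). In mean log2 signal Myh11 stood at 5.86, 5.83, 6.27 and 11.46 in the negative control, TF group 1, TF group 2 and TF group 3, so that MEFs with 3 or 5 factors read close to the control.

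Mylk, the myosin light chain kinase that starts smooth muscle contraction, read 740.5, 813 and 786 in TF group 2, against 5880.1, 5736 and 6137 in TF group 3. Its arrays fell into 2 tight sets, 7.59-fold apart (log2 difference 2.92, SE 0.07, adjusted p = 8.06e-08). Kcnmb1, the beta subunit of the calcium-activated potassium channel of smooth muscle, went from signals of 82.0, 64.2 and 58.0 to 248, 339.5 and 318. Actg2, the enteric smooth muscle actin, went from 2494, 2191 and 2887 to 8127, 8060.2 and 8865. Both groups of arrays stood apart for Kcnmb1 (4.44-fold, adjusted p = 0.000246) and for Actg2 (3.33-fold, adjusted p = 2.94e-05). Csrp2, a LIM protein of smooth muscle, rose 2.97-fold from 1074, 1082 and 996 to 2915, 3328 and 3134, and its relative Csrp1 rose 1.81-fold. Lmod1, the smooth muscle leiomodin that nucleates actin filaments, rose 2.24-fold, and Cnn1, the actin-binding calponin, 1.80-fold. The calls of Mrvi1 (log2 difference 0.97) and Smoc1 (0.71) were lost when any 1 of 4 and of 5 arrays was left out, with differences of 0.82 to 1.13 and of 0.61 to 0.86 over all such fits. Actins and myosin heavy chains are close to their relatives in sequence, and whether a probe set for one of them also bound RNA of another was not tested.

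The early and broadly expressed smooth muscle genes were already bright with 5 factors and were not called. Acta2, the smooth muscle alpha actin that fibroblasts also express, read 13220.2, 12838 and 14656 with 5 factors and 15405, 15085 and 15157 with 7. Tagln, the actin-binding transgelin, read 7259.5, 7409 and 7910.2 against 8703, 8722 and 8799. For both, every array with 7 factors was above every array with 5, yet the differences were 0.17 and 0.22 on the log2 scale (adjusted p = 0.192 and 0.0527). Tpm1, Myl9, Smtn and Flna passed the adjusted p (from 0.000832 for Tpm1 to 0.00765 for Smtn) with folds of 1.35, 1.31, 1.40 and 1.49, under the fold required. Cald1, whose protein caldesmon restrains actomyosin, did not separate the groups (0.01, adjusted p = 0.974).

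Several of these genes were also bright in the negative control and dimmer with 3 or 5 factors. In the order negative control, TF group 1, TF group 2 and TF group 3, mean log2 signals were 12.49, 10.89, 11.29 and 13.03 for Actg2, 11.19, 9.86, 9.91 and 10.76 for Cnn1 and 7.73, 6.94, 7.18 and 8.34 for Lmod1. The median difference of the list from the negative control was -0.35 with 3 factors, -0.19 with 5 and 0.26 with 7. These comparisons share the control arrays, whose poly-A spikes read lower than those of the other groups. Whether medians of this size, or their sign, hold under spike scaling was not tested.

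**Figure D2:**
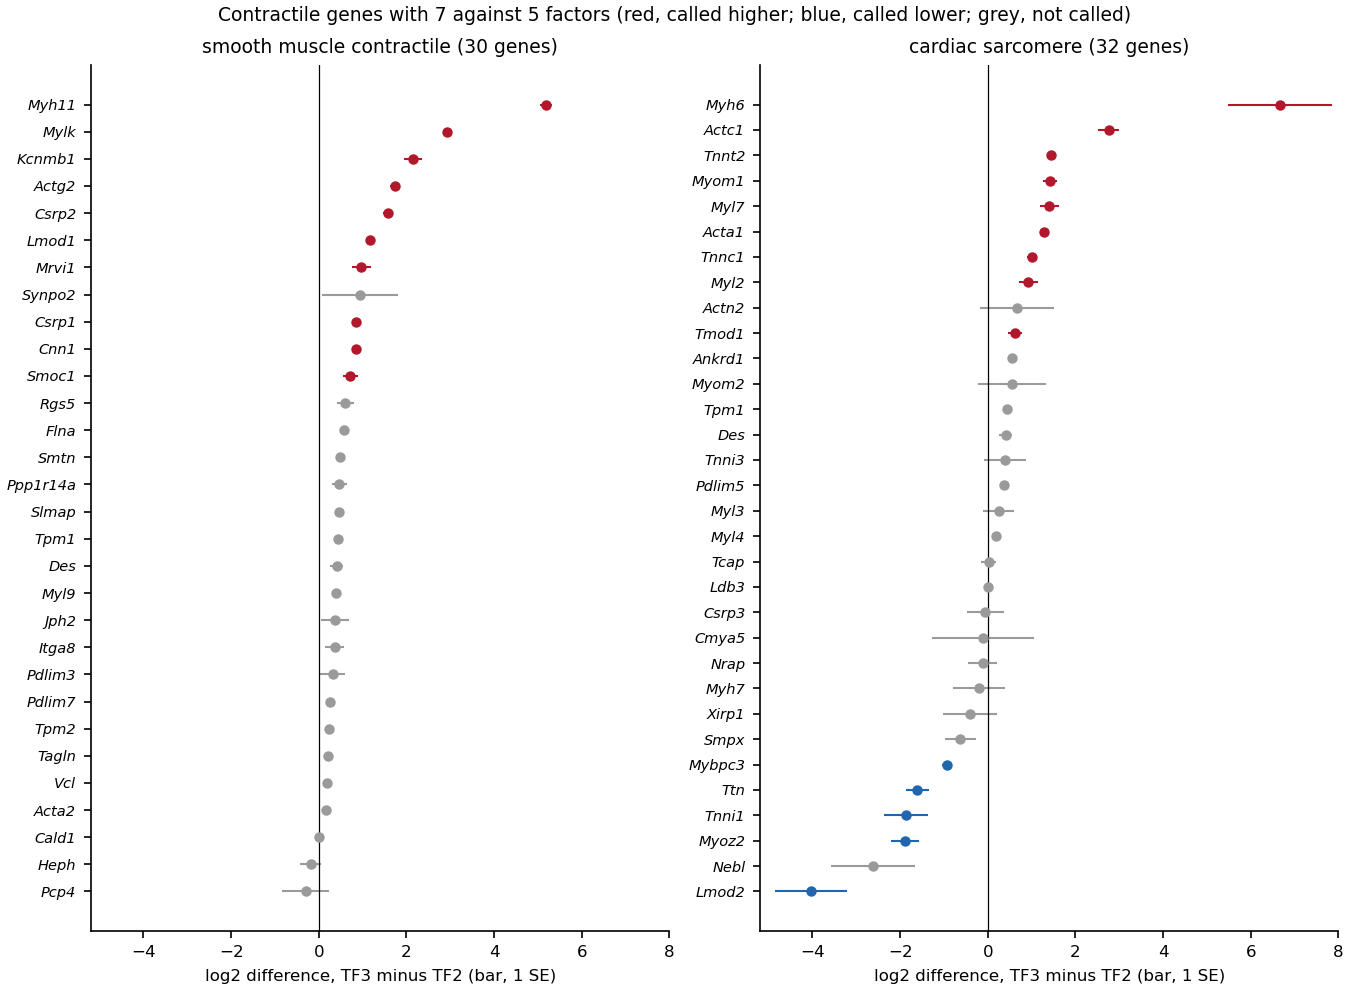
The log2 difference, TF group 3 minus TF group 2, is drawn on the horizontal axis with a bar of 1 SE for each measured gene of the smooth muscle contractile list (30 genes) and of the cardiac sarcomere list (32 genes). Red marks genes called higher, blue genes called lower and grey genes not called. The smooth muscle genes lie almost all to the right of 0, with 10 called there and 0 to the left, whereas the sarcomere list has 9 called to the right and 5 to the left.

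Cardiac sarcomere genes moved in both directions. Of 32 measured, 9 were called higher (28.1%) and 5 lower (15.6%), against 2.49% and 1.84% of all genes, and the median difference was 0.31. Myh6, the alpha myosin heavy chain of the adult mouse heart and the promoter most used as a cardiomyocyte reporter, was at background in every group but one. Its signals were 14.3, 0.415 and 1.46 in TF group 2, against 198, 206 and 219.8 in TF group 3. Only the arrays with 7 factors were above 32, which gives an increase of at least 6.49-fold (adjusted p = 0.00651); the fitted log2 difference of 6.66 ran from 5.51 without TF group 2 replicate 2 to 8.06 without TF group 2 replicate 1. Actc1, cardiac alpha actin, read 201, 166 and 209 with 5 factors and 1239, 1092 and 1589 with 7, 6.75-fold apart with no overlap (log2 difference 2.76, SE 0.23, adjusted p = 9.28e-05).

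Tnnt2 and Tnnc1, the troponin T and troponin C of the heart's thin filament, were already high with 5 factors and rose further. Tnnt2 read 2027, 2015 and 2045 in TF group 2, against 5493, 5483 and 5523 in TF group 3. The arrays of each group were nearly equal, at a mean log2 signal of 10.99 ± 0.01 and 12.43 ± 0.01 (SD, n = 3). The rise was 2.71-fold (log2 difference 1.44, SE 0.05, adjusted p = 1.44e-06). Tnnc1 rose 2.03-fold, from 1764, 1974 and 1799 to 3473, 3995 and 3757. The mean log2 signal of Tnnt2 was 6.57, 10.76, 10.99 and 12.43 in the negative control, TF group 1, TF group 2 and TF group 3. Myom1, the M-band protein myomesin, rose 2.69-fold, from 104, 143 and 129 to 366, 336 and 304. Myl7, the atrial regulatory light chain, went from 34.9, 32.9 and 29.7 to 86.0, 90.2 and 81.1, a 2.64-fold rise that brought it close to TF group 1 (mean log2 signals 4.84, 6.65, 5.02 and 6.42). Acta1, skeletal alpha actin and a fetal gene of the heart, rose 2.43-fold, from 233, 268 and 222 to 568, 590 and 595, and stayed below the negative control (mean log2 signals 10.58, 7.85, 7.91 and 9.19). Myl2, the ventricular light chain, differed by 0.92 and Tmod1, which caps actin filaments, by 0.61; their calls were lost when any 1 of 5 and of 8 arrays was left out.

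The sarcomere genes that fell were genes that stood above the control with 5 factors. Lmod2, the leiomodin of striated muscle, read 112, 93.1 and 83.7 with 5 factors and 11.5, 2.36 and 7.32 with 7. It was measurable only with 5 factors, at least 2.98-fold higher there than with 7 (adjusted p = 0.0122), and its fitted log2 difference of -4.03 became -3.38 without TF group 3 replicate 2. Ttn, the giant spring protein titin, read 195, 208 and 198 against 87.1, 58.3 and 56.2. All arrays with 7 factors were below the lowest with 5, for a 3.04-fold fall (log2 difference -1.61, SE 0.26, adjusted p = 0.00367). Myoz2, a Z-disc protein that tethers calcineurin, fell at least 3.24-fold, from 123, 94.5 and 96.2 to 44.7, 20.5 and 23.6. Mybpc3, the cardiac myosin-binding protein C, fell 1.91-fold, from 2108, 2352 and 2169.8 to 1278, 1113 and 1085. Its mean log2 signal of 6.50, 10.19, 11.11 and 10.17 in the 4 groups places TF group 3 beside TF group 1. Tnni1, the slow troponin I of the fetal heart, read 129, 153 and 116 against 31.9, 22.9 and 63.9, a log2 difference of -1.87 (adjusted p = 0.0424) whose call was lost when any 1 of 9 arrays was left out.

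Other thick and thin filament genes gave no call. Myh7, the beta myosin heavy chain, read 74.5, 134 and 128 with 5 factors and 79.7, 113 and 96.0 with 7 (adjusted p = 0.898). Actn2, the Z-disc alpha actinin, read 65.4, 6.32 and 42.0 against 44.5, 50.9 and 31.1, and Tnni3, the adult cardiac troponin I, stayed under 32 on all but 1 array. Ankrd1, a nuclear and sarcomeric stress protein, was just short of the fold required: it read 4087, 4328 and 4157 with 5 factors and 6187, 6181 and 6203 with 7, a fold of 1.48 at an adjusted p of 5.50e-05.

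**Figure D3:**
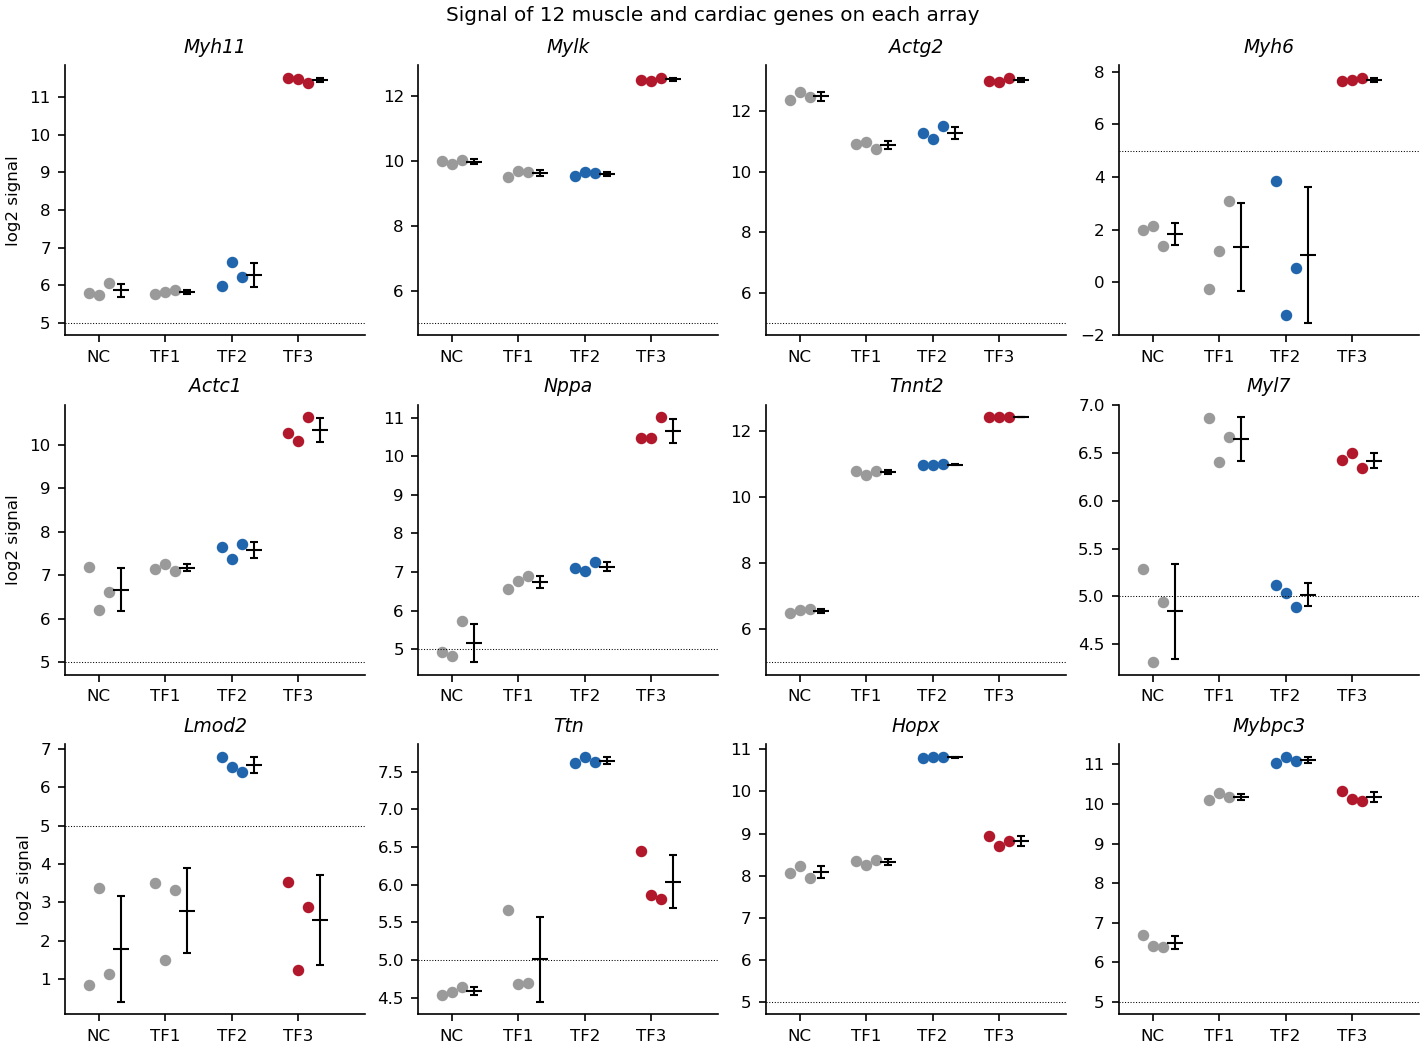
Log2 signal of 12 genes on each of the 12 arrays, grouped as negative control (NC), TF group 1 (TF1), TF group 2 (TF2, blue) and TF group 3 (TF3, red), 3 arrays each; the black bar gives the mean ± SD and the dotted line, where in range, a log2 signal of 5, or 32 in signal. The vertical scale differs between panels. Myh11, Mylk, Myh6, Actc1 and Nppa are far higher in TF group 3 than in the other groups, while Lmod2, Ttn and Hopx peak in TF group 2.

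Natriuretic peptide and fetal genes also gave calls in both directions. Of 12 measured, 4 were called higher (33.3%, against 2.49% of all genes) and 2 lower (16.7%, against 1.84%), and the median difference was 0.33. Nppa, the atrial natriuretic peptide, read 139, 130.2 and 153 in TF group 2, against 1425, 1416 and 2068 in TF group 3. The groups were far apart, at a mean log2 signal of 7.13 ± 0.12 and 10.65 ± 0.31 (SD, n = 3), and the rise was 11.5-fold (log2 difference 3.52, SE 0.24, adjusted p = 2.94e-05). Nppb, the B-type peptide, rose 4.63-fold, from 324, 269 and 371 to 1496, 1432 and 1501; its mean log2 signals of 7.92, 8.59, 8.32 and 10.53 in the 4 groups show that MEFs without factors already gave a signal for it. Acta1 and Myl7, counted above, were the other risers, and Tnni1 one of those lower. Hopx, a homeodomain protein that binds SRF rather than DNA and restrains SRF-dependent transcription, fell, from 1764, 1817 and 1800.4 to 489.8, 415 and 457. The 3.96-fold fall (log2 difference -1.99, SE 0.08, adjusted p = 2.61e-06) returned Hopx towards the level of the negative control and TF group 1, which gave 8.08, 8.32, 10.81 and 8.82 mean log2 signal in the 4 groups.

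CArG boxes were counted in RefSeq promoter windows of the GRCm38.p6 build, each 300 bases, from 250 before to 50 after a gene's start. A box was CC, then 6 bases each A or T, then GG; this pattern is its own reverse complement, so 1 search covers both strands. A window was found for 9887 of the genes tested, and 173 of these (1.75%) held a box; over all 32851 windows of the table the share was 1.63%. Among genes called higher it was 12 of 221 (5.43%) and among genes called lower 3 of 175 (1.71%). With 1 mismatch allowed in the middle bases, the shares were 20.8% of genes called higher, 10.3% of genes called lower and 11.2% of all genes. Of the sarcomere genes 7 of 29 held a box, among them 4 of the 9 called higher, and of the smooth muscle genes 2 of 24, with 0 among the 6 called higher that had a window. A match describes letters in this window only. The 4 genes called higher in the smooth muscle, sarcomere or fetal lists whose window holds a box are shown because each is a contractile gene that rose. They are Actc1 (chr2:114052826-114053125, minus strand), Myom1 (chr17:71019307-71019606, plus strand), Myl7 (chr11:5898733-5899032, minus strand) and Acta1 (chr8:123894726-123895025, minus strand). Each line reads 5′ to 3′ on the strand of the gene, with the CArG box in capitals.
Actc1: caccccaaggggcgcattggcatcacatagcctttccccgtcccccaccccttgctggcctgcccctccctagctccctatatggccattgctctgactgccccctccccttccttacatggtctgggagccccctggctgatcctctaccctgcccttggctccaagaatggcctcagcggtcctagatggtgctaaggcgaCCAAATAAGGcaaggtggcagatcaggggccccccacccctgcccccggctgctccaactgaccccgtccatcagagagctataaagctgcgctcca
Myom1: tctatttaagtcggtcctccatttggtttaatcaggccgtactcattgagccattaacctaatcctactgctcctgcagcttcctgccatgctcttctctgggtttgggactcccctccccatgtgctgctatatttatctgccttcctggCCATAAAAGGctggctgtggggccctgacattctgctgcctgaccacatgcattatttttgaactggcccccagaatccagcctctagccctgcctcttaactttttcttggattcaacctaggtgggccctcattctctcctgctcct
Myl7: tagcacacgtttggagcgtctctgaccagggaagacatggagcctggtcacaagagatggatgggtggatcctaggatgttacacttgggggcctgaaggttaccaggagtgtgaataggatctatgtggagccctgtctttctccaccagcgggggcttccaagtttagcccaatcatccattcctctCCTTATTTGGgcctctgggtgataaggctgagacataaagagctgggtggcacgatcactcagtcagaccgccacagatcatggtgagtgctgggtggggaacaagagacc
Acta1: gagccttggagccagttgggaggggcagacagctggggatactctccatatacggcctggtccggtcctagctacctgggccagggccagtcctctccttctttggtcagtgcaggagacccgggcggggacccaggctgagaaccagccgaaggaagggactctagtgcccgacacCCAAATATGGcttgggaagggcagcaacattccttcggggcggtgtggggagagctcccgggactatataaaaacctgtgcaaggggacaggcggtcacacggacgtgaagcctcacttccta
The boxes begin 47 bases before the start in Actc1, 99 in Myom1, 61 in Myl7 and 73 in Acta1. Other genes called higher with a box included Egr2 and Fhl1, described below, Igf2, the fetal growth factor, Lmcd1, a LIM protein of cardiac and smooth muscle that rose 3.18-fold, and Cbr2, Hpx and Sinhcaf. Hopx, which fell, held a box as well, 83 bases before its start.

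Immediate early genes, the SRF targets of the serum response, gave calls in both directions. Of 35 measured, 3 were called higher (8.57%, against 2.49% of all genes) and 1 lower (2.86%, against 1.84%), and the median difference was 0.09. Ier3, a stress-induced survival gene, rose 1.56-fold, from 2019, 2062 and 2176 to 3301, 3246 and 3229. Maff and Egr2 were called at differences of 0.69 and 0.60, and lost the call when any 1 of 5 and of 4 arrays was left out. Fos, the transcription factor most used as a readout of serum stimulation, went the other way. It read 1568, 1622 and 1642 with 5 factors and 1023, 966 and 1018 with 7, a 1.61-fold fall with no overlap (adjusted p = 0.000242). Egr1 was bright and not called (2922, 3018 and 3024 against 3514, 3516 and 3803, adjusted p = 0.203).

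Genes of the actin cytoskeleton and adhesion that SRF is known to serve with the myocardin-related factors gave 3 calls higher (7.32%, against 2.49% of all genes) and 0 lower of 41, with 30 of 41 differences above 0 and a median of 0.14. Itga5, the fibronectin receptor subunit, rose 2.09-fold, from 326, 352 and 389 to 679, 789.5 and 757, and Fhl1, a LIM protein of muscle, 1.77-fold, from 3734, 3588 and 3497 to 6201, 6438 and 6533. Lpp, a focal adhesion protein of smooth muscle, differed by 0.64 and lost its call without TF group 2 replicate 3 (0.56) or TF group 3 replicate 2. Vcl, vinculin, passed the adjusted p (0.033) at a fold of 1.14. SRF's cofactors and related regulators (24 measured) had 0 genes called higher and 2 lower (8.33%, against 1.84% of all genes), Hopx and Myocd; Mrtfa, a myocardin-related factor, read 649, 673 and 599.5 against 636, 643 and 616.

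Of 31 cardiac transcription factors, 0 were called higher, at a share over all genes of 2.49%, and 2 lower (6.45%, against 1.84%), again Hopx and Myocd. Their median was 0.01, and 28 of the 31 had a mean log2 signal of at least 5 in one of the groups. Nkx2-5, the early cardiac homeobox factor, read 29.1, 41.4 and 42.3 in TF group 2, against 23.9, 32.8 and 42.4 in TF group 3, Hand2 51.1, 45.1 and 49.7 against 54.3, 51.4 and 42.0, and Gata6 165, 142 and 166 against 137, 143 and 151. The first was near background in both groups, and for all 3 genes the arrays of the groups overlapped.

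Calcium handling and ion channel genes were called about as often as genes in general, with 1 higher and 1 lower of 38 (2.63% each, against 2.49% and 1.84% of all genes) and a median difference of -0.01. Casq2, the cardiac calsequestrin that stores calcium in the sarcoplasmic reticulum, read 557, 674 and 589 with 5 factors and 1301, 1432 and 1335 with 7. Its arrays did not overlap (log2 difference 1.16, adjusted p = 0.0265), but the call was lost when any 1 of the 6 arrays of these groups was left out, at differences of 1.10 to 1.24. Trdn, triadin, which anchors calsequestrin to the release channel, was called lower at -1.08 and lost the call without TF group 2 replicate 1 or TF group 3 replicate 2 (-1.02). Ryr2, the release channel itself, and Pln, phospholamban, were dim and not called (adjusted p = 0.285 and 0.578).

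Skeletal muscle genes gave 3 calls in each direction of 35 (8.57%, against 2.49% higher and 1.84% lower over all genes), and their median difference was -0.20. Tnnt1, slow skeletal troponin T, read 25.8, 11.7 and 1.94 in TF group 2, under 32 throughout, and 134, 127 and 116 in TF group 3, at least 3.92-fold higher; its call was lost without TF group 2 replicate 2 or any 1 array of TF group 3, and its fitted difference of 3.91 fell to 2.85 without TF group 2 replicate 3. Mylpf, the fast regulatory light chain, rose 3.35-fold, from 54.7, 43.2 and 60.4 to 143, 192 and 194. Cav3, the muscle caveolin, rose 1.77-fold. The fast myosin heavy chains fell: Myh1 from 994, 823 and 862 to 438, 398 and 411 (2.14-fold, adjusted p = 0.00211) and Myh2 2.07-fold. Myl1, the fast alkali light chain, was one of the brightest genes of TF group 2. It read 8268, 8687 and 8705 with 5 factors and 3743, 3839 and 4099 with 7, against mean log2 signals of 4.74, 4.78, 13.06 and 11.93 in the 4 groups, and its call (log2 difference -1.14, adjusted p = 0.0372) was lost when any 1 of 8 arrays was left out.

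Of 33 genes of fatty acid oxidation and muscle energy, 1 was called higher (3.03%, against 2.49% of all genes) and 2 lower (6.06%, against 1.84%), with a median of -0.16. Eno3, the muscle enolase, rose 3.46-fold, from 149.9, 161 and 195 to 565, 588 and 587. Fabp3, the heart fatty acid-binding protein, fell 1.64-fold, from 2409.7, 2458 and 2217 to 1387, 1527 and 1410.1. Pgam2, the muscle phosphoglycerate mutase, read 163, 95.1 and 103 in TF group 2, against 43.7, 12.8 and 14.2 in TF group 3, a fall of at least 3.65-fold that was not called without 1 of 3 arrays.

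Among genes that hold muscle cells to each other and to the matrix, more were called higher than lower. Of 19 desmosome and gap junction genes, 3 were called higher (15.8%, against 2.49% of all genes) and 1 lower (5.26%, against 1.84%), with a median of 0.24. Gjb2, connexin 26, rose 3.13-fold, from 163, 145 and 171 to 452, 446 and 613, Dsg2, the desmoglein of the heart, 2.42-fold, and Pkp2, the plakophilin of the intercalated disc, 2.01-fold, from 771, 734 and 715 to 1496, 1511 and 1462, whereas Gjb5 fell 2.09-fold. Gja1, the ventricular connexin 43, was not called (3983, 4008 and 4314 against 3382, 3576 and 3348). Of 26 genes of the dystrophin complex and costamere, 3 were called higher (11.5%) and 0 lower, with a median of 0.17: Cav3, Cavin3 (1.62-fold) and Itga7, the laminin receptor of muscle, whose call at 0.93 was lost when any 1 of 5 arrays was left out.

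In the list of small heat shock and stress genes, 5 of 31 were called higher (16.1%, against 2.49% of all genes) and 0 lower (against 1.84%), and the median was 0.03. Hspb1 read 4899, 4988 and 5161 with 5 factors and 8391, 8511 and 9200.4 with 7, and Cryab, the alpha B crystallin that binds desmin and titin, 4813, 4564 and 4689.6 against 7322, 7204 and 7647. All arrays with 7 factors exceeded those with 5, by 1.73-fold (adjusted p = 4.97e-05) and 1.58-fold (adjusted p = 2.94e-05). Hspb2 rose 1.86-fold, Hspa1a, the inducible Hsp70, 1.74-fold and the metallothionein Mt2 1.58-fold.

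Of 37 fibroblast matrix and identity genes, 0 were called higher (against 2.49% of all genes) and 3 lower (8.11%, against 1.84%), with a median of -0.02 and a summed signal of 183600 to 190900 in TF group 2 and 180800 to 183400 in TF group 3. Lum, the collagen-binding proteoglycan lumican, read 1965, 1492 and 2301 in TF group 2, against 270.4, 927 and 258 in TF group 3. The groups did not overlap, but TF group 3 replicate 2 stood well above the other arrays of its group, and the log2 difference of -2.23 (adjusted p = 0.00916) became -2.84 without it; Lum was not called when the 6 arrays were fitted alone. Fbln1, the matrix protein fibulin, fell 2.83-fold, from 1279, 1278 and 1139 to 352, 494 and 475, and Dcn, decorin, 1.68-fold, from 3092, 3029 and 3277 to 1717, 2084 and 1814. The fibrillar collagens were not called: Col1a2 read 12235, 12350.2 and 12657 against 12762, 12411 and 12977, and Col3a1 10694, 10467 and 11169 against 10211, 10950.3 and 10385. Of 28 matrix proteases and inhibitors, 3 were called higher (10.7%) and 0 lower (median 0.09), Mmp23 by 1.81-fold, Plau at 0.87 and Adamts4 at 0.72; the latter 2 lost their calls without 1 of 5 and of 3 arrays.

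Markers of other cell types gave calls in both directions, to be read against 2.49% higher and 1.84% lower over all genes, and their part in the results above was not tested. Endothelial markers (25 measured) gave 2 calls higher (8%), Ptprb (2.30-fold) and Flt4 (1.71-fold), and 1 lower (4%), Cd34 (2.15-fold), with summed signals of 1504 to 1640 in TF group 2 and 1436 to 1627 in TF group 3; the defining Pecam1 was under 32 on all 6 arrays. Cd93, a receptor of endothelium that is not on this list, rose 6.87-fold, to a signal near the sum of the whole list. Macrophage markers (25 measured) gave 0 calls, with sums of 1085 to 1200 and 1036 to 1197, and Ptprc, the pan-leukocyte CD45, did not exceed 38.6. F13a1, not on this list and counted below under coagulation, alone read above these sums. Its signals were 3354, 3734 and 3374 in TF group 2, against 1619, 1219 and 1540 in TF group 3, and it was called lower. Epithelial markers (24) gave 2 higher, Krt19 (2.10-fold) and Pkp2, and 1 lower, Krt18 (1.67-fold), with sums of 7766 to 8309 and 8561 to 9300. Neuronal markers (23) had a median of -0.27, 1 gene higher, Tubb3 (1.82-fold), and 2 lower, with sums of 6166 to 6620 and 4867 to 5278. Nefl, the neurofilament light chain, read 751, 781 and 824 with 5 factors and 123, 143 and 132 with 7, a 5.93-fold fall, and Gap43, of growing axons, fell 1.80-fold. Adipocyte genes (23) gave 0 higher and 1 lower, the desaturase Scd1 (1.55-fold). Mesothelial genes (12), a list chosen after its values were seen, gave 1 higher and 4 lower (8.33% and 33.3%), with sums of 4028 to 4384 in TF group 2 and 2323 to 2591 in TF group 3.

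Cell cycle genes were far below the negative control in both groups. Mitosis genes (37 measured) had a median difference from the negative control of -3.02 with 5 factors and -2.70 with 7, and S phase genes (39) of -1.93 and -1.75; the comparisons share the control arrays. Between the groups, mitosis genes had a median of 0.29, with 31 of 37 above 0, with 2 called higher (5.41%, against 2.49% of all genes) and 1 lower (2.70%, against 1.84%). Top2a, of dividing chromosomes, read 183, 207 and 207 in TF group 2, against 256, 261 and 310 in TF group 3, an adjusted p of 0.0186 at a fold of 1.38. Cenpa, the centromeric histone, was the 1 mitosis gene called lower, from 711, 707 and 700.3 to 287, 290.5 and 297 (2.42-fold lower, adjusted p = 2.61e-06). Bub1 (0.99) and Cenpf (0.62) were called higher and lost the call without 1 of 4 and of 2 arrays. Of the S phase genes 1 was called higher and 1 lower (2.56% each). Rrm2, a subunit of ribonucleotide reductase, rose 1.65-fold, and Mcm2 was called lower at -1.02, a call lost without 1 of 5 arrays. The p53 and cell cycle inhibitor list (29) gave 1 call higher (3.45%), Cdkn1c at 0.76, lost without 1 of 4 arrays. The spliceosome list (35) gave 1 call higher (2.86%), Ddx39a at 0.63, lost without TF group 3 replicate 1. Both shares were near the 2.49% of all genes.

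Signalling lists gave 1 to 3 calls in a direction, or 0 in the case of lower IGF genes. Medians were -0.02 for Notch, -0.02 for TGF-beta and BMP, 0.05 for Wnt and 0.17 for IGF genes. Over all genes 2.49% were called higher and 1.84% lower. The shares were 3.7% and 3.7% for Notch and 2.5% and 2.5% for TGF-beta and BMP, near those of all genes. They were 2.86% and 8.57% for Wnt and 12.5% and 0% for IGF genes. Among 27 Notch genes, the target Hes1 rose 1.74-fold and the receptor Notch3, of vascular smooth muscle, fell 1.58-fold. Among 40 TGF-beta and BMP genes, Tgfb3 rose 1.52-fold, from 1750.3, 1704 and 1711 to 2570.5, 2638 and 2668, and Chrd was called lower at -0.69. Among 35 Wnt genes, 1 was called higher, Wnt2 at 0.67, and 3 lower, the secreted antagonists Wif1 (1.76-fold) and Frzb (1.72-fold) and Porcn (1.70-fold), the enzyme that acylates Wnt ligands. Among 16 IGF genes, the ligand Igf2 rose 1.93-fold, from 893, 847 and 1101 to 1769.9, 1753 and 1944, and Igf1 was called higher at 0.62. The calls of Chrd, Wnt2 and Igf1 were lost when any 1 of 5, 6 and 5 arrays was left out.

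Among 34 chemokines and cytokines, 3 were called higher (8.82%, against 2.49% of all genes) and 2 lower (5.88%, against 1.84%), with a median of 0.02. Ccl17, a ligand of the receptor Ccr4, read 197, 244 and 239 with 5 factors and 1173, 1303 and 1287 with 7. This 5.55-fold rise was well outside the spread of either group (log2 difference 2.47, SE 0.09, adjusted p = 1.67e-06), and Ccl9 rose 2.16-fold. The neutrophil attractant Cxcl5 fell 3.68-fold, from 297, 186 and 264 to 46.9, 112 and 56.1; it was not called when the 6 arrays were fitted alone. Csf3 and Cxcl1 were called at 2.23 and -0.93 and lost the call when any 1 of 9 and of 11 arrays was left out; Csf3 became 1.54 without TF group 2 replicate 3 and 2.89 without TF group 2 replicate 1, and was at or near background in both groups. Of 31 interferon response genes, with a median of -0.04, 1 was called higher and 1 lower (3.23% each, against 2.49% and 1.84% of all genes). Ifi204 fell 2.62-fold and Gbp3 was called higher at 0.91, lost without 1 of 10 arrays.

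**Figure D4:**
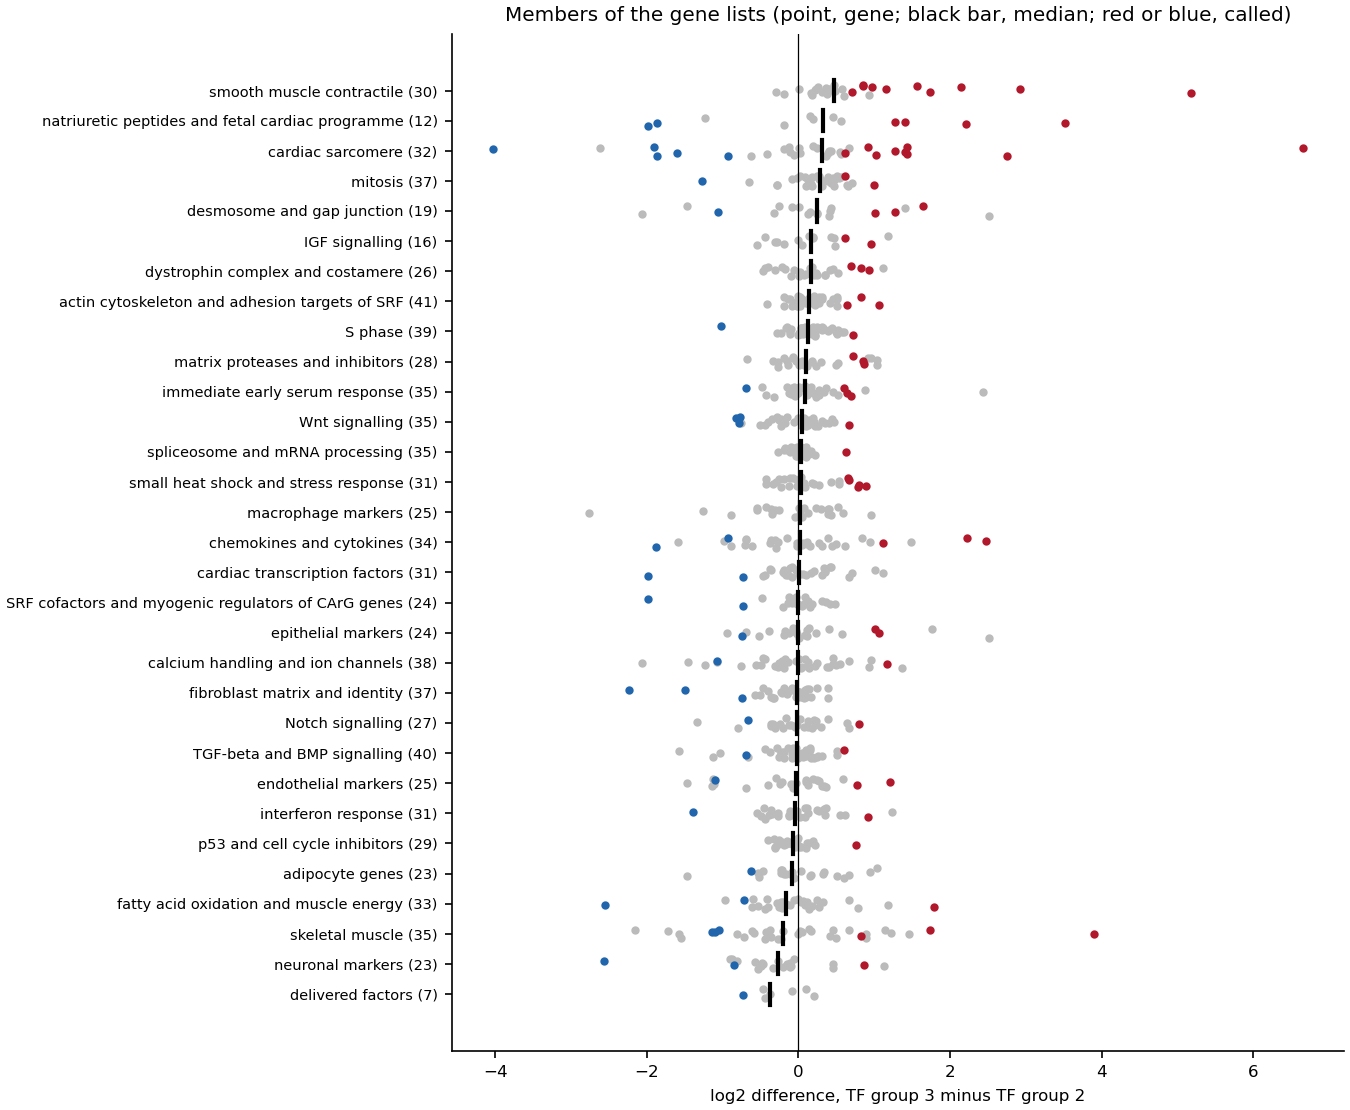
Each point is a measured gene of 1 of 31 lists (number of genes in brackets), placed on the horizontal axis by its log2 difference, TF group 3 minus TF group 2; red and blue mark genes called higher and lower, the black bar is the median of the list, and the vertical scatter within a list carries no value. The smooth muscle contractile list has the highest median (0.47), and most other lists centre near 0 with a few called genes to either side.

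Among the largest rises outside the lists were the following genes. Sez6l2, a membrane protein of neurons, read 62.5, 62.5 and 71.0 in TF group 2, against 1792, 1589 and 1814 in TF group 3, 26.5-fold apart (log2 difference 4.73, SE 0.23, adjusted p = 4.31e-06). Efhd1, a calcium-binding protein of mitochondria, read 33.1, 37.1 and 26.6 against 759.7, 721 and 793, at least 23.7-fold apart. Lhx1, a LIM homeobox factor of kidney and head development, read 2.32, 4.46 and 1.59 with 5 factors and 305, 303 and 310.4 with 7. It was at background in all other groups (mean log2 signals 3.52, 2.20, 1.35 and 8.26) and rose at least 9.57-fold. Stmn3, a microtubule-destabilising stathmin, rose 9.62-fold, and Aoc3, a surface amine oxidase abundant in smooth muscle and fat, 7.02-fold, from 31.1, 30.9 and 34.8 to 232, 218 and 229. Cd93, a lectin-like receptor of endothelium, went from 207, 207 and 198 to 1429, 1386 and 1386, with mean log2 signals of 5.16, 6.79, 7.67 and 10.45 in the 4 groups. Sh3bgr, a small protein of heart and skeletal muscle, rose 4.83-fold, from 364, 378 and 364 to 1750.3, 1740.4 and 1851. Lama1, laminin alpha 1, rose 4.83-fold, B3gnt5, a glycolipid glycosyltransferase, 5.38-fold, Syne4, an outer nuclear membrane nesprin, 4.91-fold, Noxo1, the organiser of an NADPH oxidase, at least 5.69-fold and Calcoco2 at least 5.33-fold. Ppargc1b, a coactivator of mitochondrial genes, was called at 4.87-fold and lost the call when any 1 of 5 arrays was left out.

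Many of the steepest decreases were of genes that were bright with 5 factors and near background in the negative control. Grp, gastrin-releasing peptide, read 4916, 5193 and 5042 with 5 factors and 438, 533 and 448 with 7. The 10.7-fold fall (adjusted p = 0.00084) left it far above the negative control and TF group 1 (mean log2 signals 3.73, 4.19, 12.30 and 8.88). Anxa10, an annexin, read 458, 417 and 416 against 79.2, 62.2 and 63.0, 6.35-fold lower, and Tspan8, a tetraspanin, fell 3.62-fold, from 1525, 1725 and 1655 to 457, 436 and 463 (mean log2 signals 4.75, 7.23, 10.67 and 8.82). Bex2 (5.47, 6.26, 9.66 and 8.11) and Dync1i1, a dynein intermediate chain of neurons (5.40, 6.93, 9.82 and 8.16), showed the same order of mean log2 signals, and Ddx4, the germ cell helicase (5.30, 4.81, 8.27 and 6.47), was also brightest with 5 factors. Etfbkmt, a mitochondrial methyltransferase, fell 4.05-fold, Rassf2 3.71-fold, Dtd1 2.89-fold and Ptgds, the prostaglandin D synthase, 3.01-fold. Aqp1, a water channel, was brightest in the control (9.73, 8.80, 8.60 and 6.93) and fell 3.20-fold. The serotonin transporter Slc6a4 (-1.67) and Ang2, of the angiogenin family, whose close relatives its probe set may also bind (-1.96), were called lower and lost the call without 1 of 4 and of 9 arrays; Ang2 became -1.37 without TF group 3 replicate 3.

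The step from 5 to 7 factors was set beside the step from none to 3, TF group 1 against the negative control. The group means of these steps share no array, but their calls came from the same fit over all arrays of the series. Calls in either step thus used the same estimate of replicate spread for a gene. Whether this raised the overlap of calls was not tested. For TF group 1 against the negative control, 1881 genes (15.2%) were called higher and 1116 (9.01%) lower. Of the 228 genes called lower with MYOCD and SRF, 133 (58.3%) were called higher with 3 factors and 11 (4.82%) lower. The 133 were 7.07% of all genes called higher with 3 factors. Of the 308 genes called higher with MYOCD and SRF, 71 (23.1%) were called higher and 67 (21.8%) lower with 3 factors. Across all 12393 genes Pearson's r of the differences was -0.12 (Spearman's rank correlation -0.16), and across the 7346 genes with a mean log2 signal of at least 7 in TF group 2 or 3 Pearson's r was -0.20; genes are not independent replicates, and both differences come from arrays of 1 series and the same probe sets. Tnnt2 and Tnnc1 rose in both steps, by 4.19 and 4.64 with 3 factors and by 1.44 and 1.02 with MYOCD and SRF on the log2 scale. Mybpc3 and Fabp3 rose by 3.69 and 3.70 in the former and differed by -0.93 and -0.71 in the latter. Acta1, Actg2 and Gjb2 went the other way, with differences of -2.73, -1.60 and -2.50 with 3 factors and 1.28, 1.73 and 1.64 with MYOCD and SRF. Myh11 was not called with 3 factors, at -0.03, and rose by 5.18 with MYOCD and SRF.

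**Figure D5:**
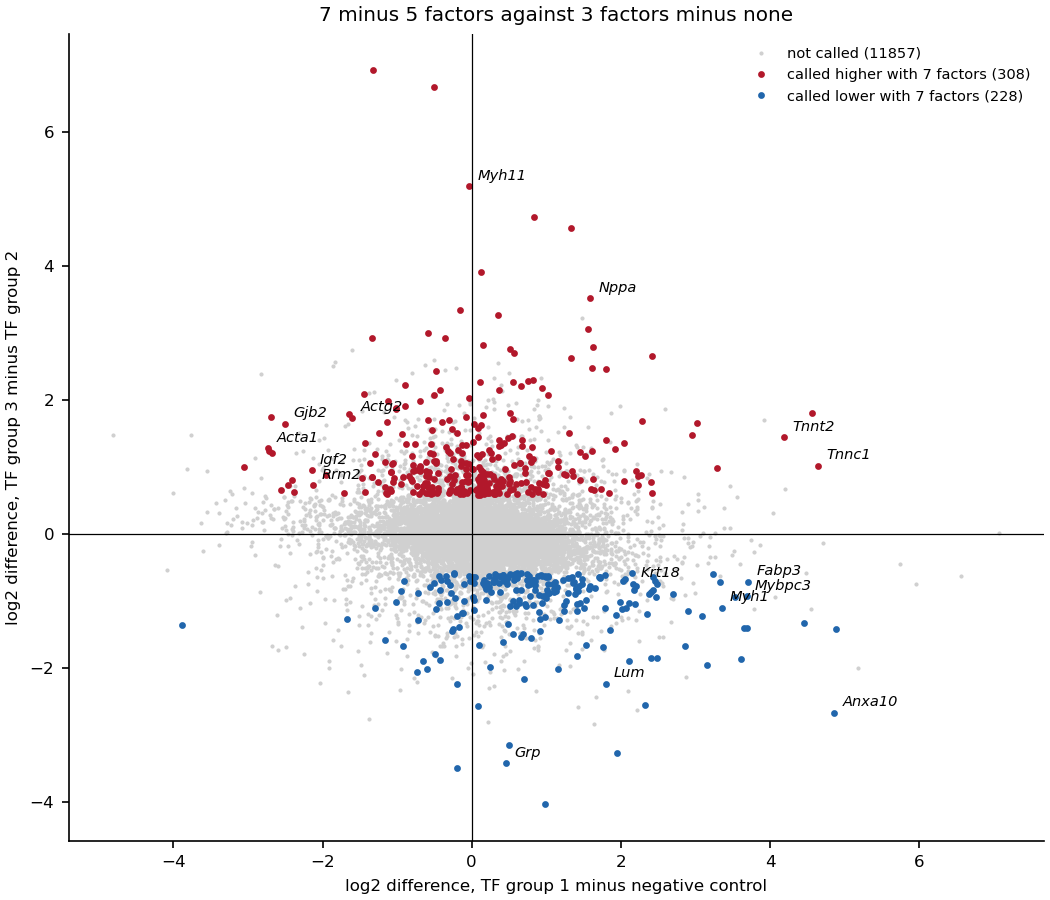
Each point is 1 of 12393 genes. The horizontal axis is the log2 difference between TF group 1 and the negative control. The vertical axis is the log2 difference between TF group 3 and TF group 2. The differences share no array, but the calls came from the same fit over all arrays of the series. Blue genes, called lower with MYOCD and SRF, lie mostly to the right of 0, whereas red genes, called higher, lie on both sides.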

How the data were processed

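RNA of 12 MEF cultures, 3 in each of 4 groups, was hybridised to Affymetrix Mouse Genome 430A 2.0 arrays. The authors deposited 1 intensity per probe set and array, on a linear scale with a trimmed mean of 500 on each array (2% trimmed at either end). Their processing notes name RMA and Partek, without versions; since RMA gives log2 values, the summary method behind these intensities is not settled, and neither is any floor. Values here are log2 of the deposited intensity, with no further scaling. Differences were fitted with limma 3.58.1 (lmFit, eBayes) in R 4.3.3, on all 12 arrays and 4 groups and on the 22626 probe sets other than 64 controls, and p-values were adjusted by Benjamini-Hochberg. Calls needed an adjusted p under 0.05 and a fold over 1.5. The limma p-values set a group difference against the spread between replicate cultures, estimated over all 12 arrays and moderated across probe sets or genes. Probe sets were named from the platform annotation: 20380 have 1 symbol, 691 several and 1555 none, and those of the latter kinds were named nowhere; 45 of the unnamed were called (28 higher, 17 lower). The brightest probe set over all arrays stood for a gene. For dim genes a fold was taken against a signal of 32.

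Named genes were the 20 largest called changes in each direction, with signals under 32 set to 32, up to 5 called genes per direction in each of 31 gene lists, the delivered factors and preset markers. The comparison, its members and the lists were chosen with earlier results of these data known, and 82 listed genes are not measured on this array. Array number limits the precision. The fits were tested on simulated data, with independent normal noise of the same spread in every group. Whether this holds for the uneven scatter of dim genes was not tested. Alternatives covered the scaling, an offset of 50 before log2, the choice of probe set, the arrays fitted, the thresholds, the ANOVA of the methods at an unadjusted p, a replicate block and leaving out each array. Promoter windows came from RefSeq. The PCR and pathway networks of the study were not analysed here.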

Additional observations from a re-analysis of the deposited data

How the results depend on the processing

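The counts moved by over 1.5 times with the thresholds and with spike scaling. Against 308 genes called higher and 228 genes called lower (494 probe sets called higher and 315 probe sets called lower), no fold requirement gave 718 and 720 genes (1055 and 876 probe sets), an unadjusted p under 0.05 in limma gave 395 genes lower (863 and 650 probe sets), and the ANOVA of the methods at that unadjusted p gave 352 genes lower (780 and 573 probe sets). A fold over 2, with no floor at a signal of 32, gave 132 and 87 genes (210 and 117 probe sets), and scaling each array to its poly-A spikes 117 and 88 genes (175 and 98 probe sets); the cause was not tested. Centring on the median kept 285 and 220 of the called genes, quantile normalization 296 and 222, the 6 arrays alone 254 and 181, an offset of 50 before log2 210 and 150, and leaving out an array of TF group 2 or 3 227 to 245 and 173 to 181. The share of called genes that were higher ran from 49.9% with no fold requirement to 60.3%. Leaving out 1 array gave 244 to 324 genes higher and 194 to 238 lower, or 393 to 518 and 251 to 333 probe sets. With a replicate block, 292 genes were higher and 218 lower (464 and 299 probe sets), and 277 and 207 of the called genes were kept; same-numbered arrays of different groups did not deviate together (r of 0.00289, 0.0230 and -0.00552), and the labels do not say that a number marks a shared day, so the samples share only a number. Of 142 named genes with a call, 114 to 139 remained called when single arrays were left out, 86 with a fold over 2 and 85 with spike scaling. With the mean of the probe sets of a gene, 125 of them remained called, as did 241 of all genes called higher and 188 of those called lower. Named genes whose calls were lost there included Itga5, Myh1, Ptgds, Igf2, Cryab, Flt4, Scd1 and F11r. Their folds in the text hold for the brightest probe set only. Only Myocd turned its sign among called genes, to 0.054 with the mean of its probe sets; a further 57 sign changes in 26 named genes were between values called under neither setting. Median differences of cardiac transcription factors, chemokines and SRF cofactors, all near 0, changed sign with the scaling. Genes under a signal of about 32 scatter so widely that a missing call there says little.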

Other observations

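The groups of genes here were chosen after their values were seen and are given as counts. Over all genes 2.49% were called higher and 1.84% lower. Small leucine-rich proteoglycans, which space collagen fibrils, had 1 of 13 members called higher (7.69%) and 5 lower (38.5%), with a median of -0.41. Besides Lum and Dcn the lower ones were Ogn, osteoglycin (1.91-fold lower, from 3358, 3364 and 3381 in TF group 2 to 1624, 1993 and 1692 in TF group 3), Nepn (2.01-fold) and Epyc. Epyc differed by -1.40 but was under 32 on every array of TF group 3, so that its fall was at least 1.14-fold. Its call was lost when single arrays were left out. Optc, opticin, rose 3.64-fold, from 33.7, 40.5 and 45.5 to 133, 139 and 162. Of 18 genes of retinoid binding, synthesis and response, 2 were called higher (11.1%) and 3 lower (16.7%). Aldh1a1, which makes retinoic acid, read 3691, 3966 and 3792 with 5 factors against 1578, 1506 and 1459 with 7, a 2.52-fold fall with no overlap, and the binding proteins Crabp1 and Crabp2 fell 2.57-fold and 1.55-fold. Rarres2, which encodes the adipokine chemerin, rose 4.44-fold, from 82.3, 104 and 106 to 434, 417 and 436, and Rbp4, the retinol carrier of plasma, 1.76-fold.

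Of the 3 Popeye domain genes, which encode cyclic AMP-binding membrane proteins of striated and smooth muscle, Bves rose 3.77-fold (from 80.2, 64.3 and 65.2 to 224, 275 and 292) and Popdc2 4.20-fold (from 71.6, 58.7 and 53.3 to 272, 219 and 279), and Popdc3 differed by -0.31 with no call. Of 24 genes listed for coagulation and fibrinolysis, which include genes of other functions, 4 were called higher (16.7%) and 3 lower (12.5%). Over all genes the shares were 2.49% and 1.84%. F3, tissue factor, rose 2.92-fold, from 576, 699.8 and 598 to 1782, 1798 and 1862. Procr and Thbd, of the protein C pathway, rose 1.68-fold and 1.64-fold, and Plau 1.82-fold. F13a1 fell 2.40-fold, F11r 1.93-fold and Anxa8 1.60-fold. Mesothelial markers gave 1 call higher (8.33%) and 4 lower (33.3%) of 12, with a median of -0.48. Krt19 rose, as given above, whereas Msln, mesothelin, fell 2.31-fold, from 856, 883 and 838 to 394, 387 and 339.6. Efemp1 fell 2.04-fold, and Krt18 fell as above. Upk3b was called at -1.82, a call lost when any 1 of 10 arrays was left out. Its difference was -1.13 without TF group 3 replicate 2 and -2.23 without TF group 3 replicate 3.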
